A study of Mus musculus with 8 samples.

Results

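The RNAs of 10 enzymes and cofactors of cytosine methylation and its oxidation were examined for binding by MBD5 and MBD6 in mouse embryonic stem (mES) cells. The genes were the TET enzymes Tet1, Tet2 and Tet3, the DNA methyltransferases Dnmt1, Dnmt3a, Dnmt3b and Dnmt3l, the UHRF proteins Uhrf1 and Uhrf2, and the glycosylase Tdg. They were chosen by name, and a peak was counted for a gene when its midpoint lay in the gene body on the same strand. This gave 92 peaks of the 29555 in the 4 peak lists. The peaks merged into 30 sites, a site being any run of same-strand peaks of the 4 libraries that overlapped by at least 1 bp.

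DNA methyltransferases place a methyl group on cytosine, mostly where a G follows it (CpG). Dnmt1 copies the mark after replication with the help of Uhrf1, and Dnmt3a and Dnmt3b place it on unmethylated DNA, helped by the inactive relative Dnmt3l. TET enzymes oxidize the methyl group stepwise, and Tdg removes the most oxidized forms so that base excision repair can restore cytosine. Tet1 and Tet2 are the main TET enzymes of mES cells, and Tet2 also oxidizes 5-methylcytosine in RNA. MBD5 and MBD6 carry a domain of the methyl-CpG-binding family, and the study set out to find the RNAs they bind.

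The peaks came from CLIP-seq, short for cross-linking, immunoprecipitation and sequencing, in which ultraviolet light joins protein to RNA, the protein is pulled down and the RNA fragments are sequenced. Both groups were wild-type mES cells that stably overexpressed a human protein with a 3×Flag tag from a hygromycin-selected plasmid, MBD5 in the Flag-MBD5 group and MBD6 in the Flag-MBD6 group. All cells grew in serum with LIF and the inhibitors CHIR99021 and PD0325901, and were passaged on gelatin to remove feeder cells. The results therefore concern overexpressed human proteins, and neither a control precipitate nor the 4 inputs of the 8 samples was analysed here. The sample characteristics name a Flag antibody, whereas the extraction protocol names one against MBD6.

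Each group had 2 CLIP libraries. Flag-MBD5 gave lists of 5362 and 5388 peaks, and Flag-MBD6 gave 9218 and 9587. From these lists a depth of 478791 and 500143 reads was estimated for Flag-MBD5, and of 983918 and 1111742 reads for Flag-MBD6, a ratio of 2.14. Summit read counts of replicates, at sites called in all 4 libraries, differed by less than independent sampling gives. Identical reads had been collapsed, and whether this lowered the differences was not tested. The chi-square per degree of freedom was 0.496 at 685 sites for Flag-MBD5 and 0.414 at 277 sites for Flag-MBD6, where independent sampling gives about 1. Each protein was therefore counted as 1 sample, library values are given without an SD, and no test between the proteins was made. Of 10 markers of embryonic stem cells fixed for the check, 4 held an MBD5 region and 6 an MBD6 region. Klf4, Lin28a and Utf1 held neither. Of 6 markers of feeder fibroblasts none held either. Over all protein-coding genes the shares were 7.80% and 13.8%, so the lack of regions in 6 genes does not show that feeder cells were absent.

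The strongest sites lay in Dnmt1, Tet1 and Tet2 RNA, and the sequences of the best-ranked sites are shown. The 8 best of the 11 sites found in all 4 libraries are given, ranked by deposited fold enrichment, followed by the best site found for MBD6 alone. Sites are numbered from the 5′ end of each gene. Each sequence starts at the 5′ end of the peaks (the middle one where libraries differed), is the annotated transcript 5′ to 3′ on build GRCm38, which is mm10, with T for U, and runs for 90 nt or to the end of the exon. Capitals mark CpG.

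Dnmt1 site 7: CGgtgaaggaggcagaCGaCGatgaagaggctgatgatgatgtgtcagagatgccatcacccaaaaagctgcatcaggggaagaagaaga
Dnmt1 site 3: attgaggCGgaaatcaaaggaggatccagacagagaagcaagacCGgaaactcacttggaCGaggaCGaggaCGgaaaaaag
Tet1 site 1: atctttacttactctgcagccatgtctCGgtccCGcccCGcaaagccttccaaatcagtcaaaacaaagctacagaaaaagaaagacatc
Tet1 site 4: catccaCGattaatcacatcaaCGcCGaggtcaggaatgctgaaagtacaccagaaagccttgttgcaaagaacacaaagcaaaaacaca
Tet2 site 4: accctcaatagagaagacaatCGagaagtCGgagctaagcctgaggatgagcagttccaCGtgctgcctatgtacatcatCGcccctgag
Dnmt1 site 8: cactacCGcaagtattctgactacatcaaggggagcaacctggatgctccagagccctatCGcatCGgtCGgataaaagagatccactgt
Tet1 site 2: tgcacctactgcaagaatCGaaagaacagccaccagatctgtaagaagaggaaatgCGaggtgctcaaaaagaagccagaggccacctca
Tet1 site 5: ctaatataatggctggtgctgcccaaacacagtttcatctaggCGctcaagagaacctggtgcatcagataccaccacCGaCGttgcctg
Tet1 site 9: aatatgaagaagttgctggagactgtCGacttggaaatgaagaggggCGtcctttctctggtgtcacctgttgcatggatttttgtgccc

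The stretches are chr9:20919884-20919973, chr9:20932115-20932196 and chr9:20915784-20915873 for Dnmt1 sites 7, 3 and 8, chr3:133469544-133469633 for Tet2 site 4, and chr10:62879946-62880035, chr10:62839088-62839177, chr10:62878161-62878250, chr10:62838425-62838514 and chr10:62814480-62814569 for Tet1 sites 1, 4, 2, 5 and 9, all on the minus strand. They held between 2 and 5 CpG each, and the rate of CpG in all peaks is given with the letters below. RNase T1, used to trim the RNA, cleaves after G, and the base just before the 5′ end was G at 5 of the 8 best sites and at 18 of the 28 sites where it could be read.

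Peaks fell unevenly over the 10 genes. With Flag-MBD5, Tet1 had 9 and 6 peaks, and with Flag-MBD6 it had 12 and 11. Dnmt1 had 5 and 8 peaks with Flag-MBD5 and 8 in each Flag-MBD6 library, and Tet2 had 2 and 3 with Flag-MBD5 and 5 and 4 with Flag-MBD6. These 3 genes held nearly all peaks of the set in every library. Dnmt3l had 1 peak in each Flag-MBD5 and 2 in each Flag-MBD6 library, Tdg had 1 in every library, and Dnmt3b had 1 in the first Flag-MBD6 library alone. No library had a peak in Tet3, Dnmt3a, Uhrf1 or Uhrf2, and none had a peak on the opposite strand of any of the 10 genes. In all, the genes took 18 and 19 Flag-MBD5 peaks, which is 0.336% and 0.353% of the lists, and 29 and 26 Flag-MBD6 peaks, which is 0.315% and 0.271%.

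**Figure D1:**
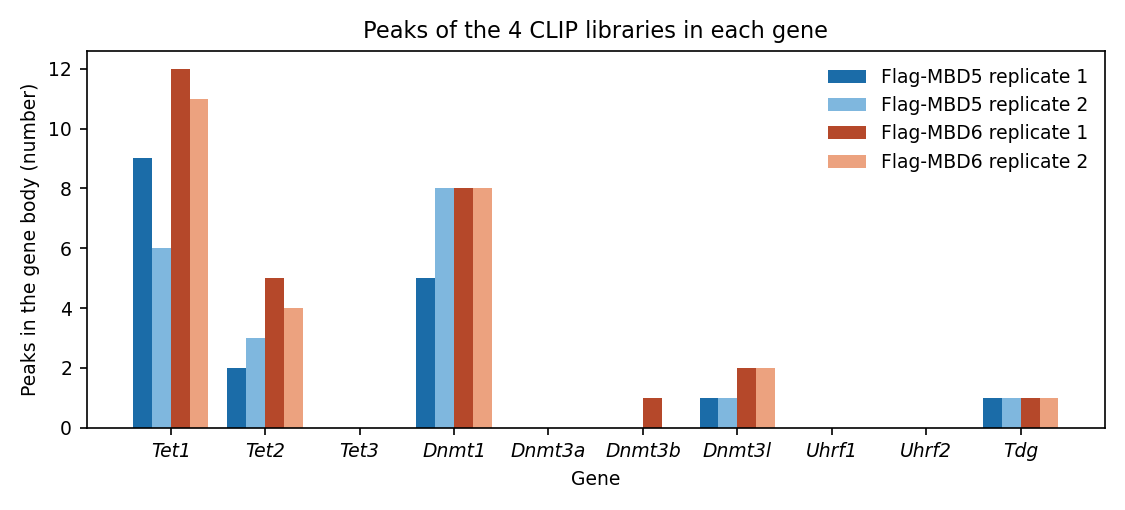
Number of peaks in the gene body of each of the 10 genes (vertical axis), with 1 bar for each CLIP library. Tet1 and Dnmt1 carry the most peaks in every library, and Tet3, Dnmt3a, Uhrf1 and Uhrf2 have none.

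A reproducible region was a set of overlapping peaks with a member from each replicate of a protein. Tet1 had 5 MBD5 and 11 MBD6 regions, Dnmt1 had 5 and 7, Tet2 had 1 and 4, Tdg had 1 of each, and Dnmt3l had an MBD6 region alone. With the same number of peaks taken from each library, the MBD6 regions of Tet1, Dnmt1, Tet2 and Tdg became 7, 3, 1 and 0, and the MBD5 regions stayed at 5, 5, 1 and 1. Thus 4 of the 10 genes held an MBD5 region, against 7.80% of the 21924 protein-coding genes, and 5 of the 10 held an MBD6 region, against 13.8%. The 5 became 4 with equal numbers of peaks, without Tdg. Genes with long coding sequences held regions more often. Of the 1225 genes with at least 4000 nt of coding sequence, a limit chosen after the values were seen, 25.9% held an MBD5 and 38.5% an MBD6 region. Tet1, Tet2 and Dnmt1 were 3 of the 4 members of that length with a region, for either protein, and Tet3 was the fourth. Among shorter genes the shares were 6.73% and 12.3%, with 1 of 6 members holding an MBD5 region and 2 of 6 an MBD6 region. The presence of a peak depends on how much of an RNA a cell holds as well as on binding. No RNA level was measured in these files, so level and binding cannot be told apart.

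The TET enzymes carried 52 of the 92 peaks. Tet1 (chr10:62804570-62908996, minus strand, 13 exons) had 11 sites, 5 of them in all 4 libraries and 2 in both Flag-MBD6 libraries alone. The sites ran along its 6117 nt of coding sequence, from just before the start codon to 91.8% of its length, which is 1.80 sites per kb. None began in its 3′ untranslated region (UTR) of 7958 nt, although that is longer than the coding sequence. Few peaks of the whole lists did, with 1.43% to 1.68% of all peaks in a 3′ UTR at 15 nt inside the 5′ end.

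With Flag-MBD6, Tet1 site 1 (chr10:62879565-62880036, exon 2) began about 21 nt before the start codon and ran into the coding sequence. With Flag-MBD5 its peaks began inside the coding sequence, at 62879974 and 62879977, and the 5′ ends spread over 62 nt. Tet1 site 1 had 47 and 64 summit reads with Flag-MBD5 and 123 and 154 with Flag-MBD6. In the Flag-MBD6 libraries and the second Flag-MBD5 library no site of the 10 genes had more reads, while in the first Flag-MBD5 library Dnmt1 site 3 had more, with 60. Its fold enrichment, the summit signal over the local background, was 22.0 and 30.4 with Flag-MBD5 and 28.1 and 41.1 with Flag-MBD6. The first Flag-MBD5 and the second Flag-MBD6 library were the lowest and the highest, and the values of the proteins overlapped. By fold enrichment the site was in the top 10.9% and 4.8% of Flag-MBD5 peaks and the top 8.3% and 2.7% of Flag-MBD6 peaks.

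Tet1 site 2 (chr10:62878060-62878250) lay at the end of the same exon, in sequence that encodes the CXXC zinc finger, a domain that binds CpG in DNA. Its reads were 35 and 29 with Flag-MBD5 and 70 and 73 with Flag-MBD6, and its 5′ ends fell within 2 nt of each other. The fold enrichment was 8.69 and 8.52 with Flag-MBD5 and 15.5 and 15.6 with Flag-MBD6, without overlap. The Flag-MBD5 values were below the median peaks of those libraries, at 10.4 and 10.5. The Flag-MBD6 values were above theirs, at 10.9 and 11.1. When reads were set against the depth of the libraries, the proteins were close at this site, with a log2 ratio of 0.06.

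Sites 3, 4 and 5 of Tet1 lay in exon 4, which has 2203 nt. Site 4 (chr10:62838797-62839177) was the strongest of them, with 31 and 27 reads and 24.8-fold and 21.3-fold enrichment for Flag-MBD5, and 46 and 60 reads and 25.2-fold and 30.8-fold enrichment for Flag-MBD6. Site 3 was a chain of 6 peaks over 1058 bp. The strongest peak of each library had 24, 23, 40 and 45 reads, at 10.9-fold, 12.3-fold, 8.36-fold and 15.6-fold enrichment. Their 5′ ends, in the same order, were 62839844, 62840210, 62839892 and 62840200, a spread of 366 nt. For both proteins, the values of site 3 thus come from separate places in the 2 libraries. Site 5 had 14 and 20 reads with Flag-MBD5 and 30 and 31 with Flag-MBD6, at 10.8-fold to 12.6-fold enrichment. The median peak of the libraries had 10.4-fold to 11.1-fold enrichment. Site 4 was above it in all 4 libraries, site 5 was close to it, and site 3 was below it in the first and above it in the second Flag-MBD6 library.

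The other 6 sites of Tet1 lay in exons 7 to 13, which encode the catalytic part of the enzyme, and none was found in all 4 libraries. Site 9 (chr10:62814404-62814569, exon 11) had 22 and 27 reads in the Flag-MBD6 libraries and no peak with Flag-MBD5, and site 11 (chr10:62812867-62813037, exon 13) had 23 and 16. At the depth of the Flag-MBD5 libraries these counts come to 11.4 and 9.11 reads. The weakest called peaks of those libraries had 5 reads and the median peak 16, and both counts lie between these values. Whether either site would be called at that depth was not tested. Sites 6, 7, 8 and 10 each had a peak in both Flag-MBD6 libraries, of 16 to 34 reads, and in 1 Flag-MBD5 library, of 8 to 15 reads.

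Tet2 (chr3:133463679-133545139, minus strand, 12 exons) had 4 sites in 5760 nt of coding sequence, or 0.694 per kb. Site 4 (chr3:133469252-133469635, exon 11) was the one found in all 4 libraries. It had 24 and 16 reads with Flag-MBD5 and 50 and 49 with Flag-MBD6, and 17.9-fold and 9.68-fold against 25.2-fold and 24.3-fold enrichment. The Flag-MBD5 libraries lay below both Flag-MBD6 libraries on this scale and differed from each other more than the Flag-MBD6 libraries did. Sites 1, 2 and 3 lay in exon 3, the long exon of 3206 nt, each with a peak of 15 to 27 reads in both Flag-MBD6 libraries and a peak of 9 to 20 reads in 1 Flag-MBD5 library. None began in the 3′ UTR of 2901 nt, a region where few peaks of the whole lists begin. Tet3 (chr6:83362373-83459084, minus strand), the TET enzyme of the oocyte and early zygote, had 5409 nt of coding sequence and no peak.

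**Figure D2:**
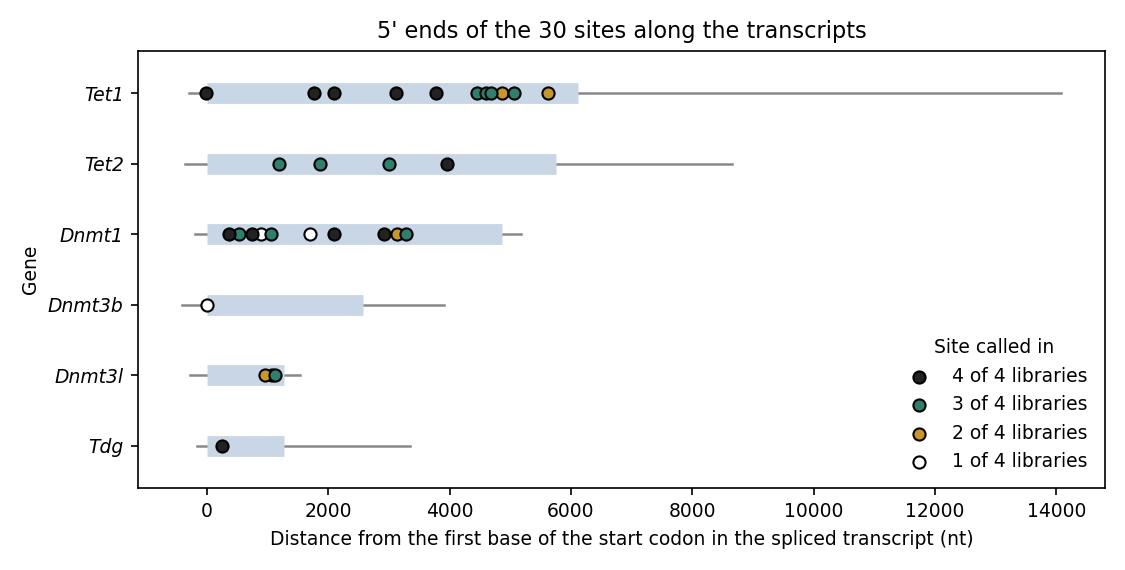
Position of the 5′ end of each of the 30 sites along the spliced transcript (horizontal axis, nt from the start codon), with the coding sequence as a thick bar and the UTRs as thin lines. Colour gives the number of libraries in which a site was called. No site begins in a 3′ UTR, where 1.43% to 1.68% of all peaks begin.

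The DNA methyltransferases carried 36 of the peaks, 29 of them in Dnmt1. Dnmt1 (chr9:20907209-20959888, minus strand), the maintenance methyltransferase, has 39 exons, the longest of 353 nt, and 4860 nt of coding sequence. It had 10 sites, or 2.06 per kb, between 7.7% and 67.6% of the coding sequence, and none in the last part, which encodes most of the catalytic domain. Of these sites 4 were in all 4 libraries and 1 was in both Flag-MBD6 libraries alone.

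Dnmt1 site 7 (chr9:20919741-20920095, exon 23) was the best site of the 10 genes by mean rank. It had 44 and 43 reads with Flag-MBD5 and 62 and 70 with Flag-MBD6, and 34.8-fold and 31.9-fold against 40.5-fold and 40.9-fold enrichment, which put it in the top 2.7% to 4.3% of each list. The 5′ ends lay within 5 nt in 3 libraries, while the peak of the second Flag-MBD6 library began upstream of them, which gave a spread of 127 nt. As printed above, the sequence begins with a CpG and goes on into runs of GA and GAT.

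Dnmt1 site 3 (chr9:20931994-20932196, exon 10) came next and had 60 and 51 reads with Flag-MBD5 and 81 and 83 with Flag-MBD6. Its fold enrichment was 45.3 and 39.9 with Flag-MBD5 and 27.8 and 44.3 with Flag-MBD6. The first Flag-MBD6 library stood below the other libraries, which were in the top 1.5% to 2.2% of their lists. All 4 of its 5′ ends fell within 4 nt, in an exon of 85 nt. It held 5 CpG, 3 of them in the row of CGAGGA repeats near its 3′ end.

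Dnmt1 sites 8 and 1 were weaker. Site 8 (chr9:20915630-20915913, exon 28) had 20 reads in each Flag-MBD5 and 32 in each Flag-MBD6 library, at 11.8-fold and 13.4-fold against 19.4-fold and 19.6-fold enrichment. Site 1 (chr9:20941272-20941437, exon 4) had 12, 12, 14 and 18 reads at 8.21-fold to 10.1-fold enrichment, below the median peak of each list. Site 9 (chr9:20913819-20914037, exon 29) had 16 reads in each Flag-MBD6 library and none called with Flag-MBD5, and its sequence held 7 CpG, the most of the 30 sites. Those reads come to 7.47 at the Flag-MBD5 depth. Sites 2, 5 and 10 were found in 3 libraries each, with 9 to 14 reads with Flag-MBD5 and 16 to 30 with Flag-MBD6, and site 6 had a single peak of 8 reads in the second Flag-MBD5 library. The single peak of site 4, of 14 reads in the second Flag-MBD6 library, shares a stretch of 20 nt with Sin3a and is uncertain for that reason.

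The other methyltransferases had few peaks or none. Dnmt3l (chr10:78041947-78063622, plus strand) had 3 sites in the last part of its 1263 nt of coding sequence, from 75.8% on. Site 3 (chr10:78063203-78063377, exon 14) had 14 reads with Flag-MBD5, in the second library only, and 21 and 29 with Flag-MBD6, and it was the MBD6 region of the gene. Site 1 had 10 reads in the first Flag-MBD5 and 21 in the second Flag-MBD6 library, and site 2 had 22 reads in the first Flag-MBD6 library. Dnmt3b (chr2:153649450-153687730, plus strand) had a single peak of 14 reads, in the first Flag-MBD6 library, at the start codon. Dnmt3a (chr12:3806007-3914443, plus strand) had none in 2724 nt of coding sequence or in a 3′ UTR of 6699 nt. No peak was found in Uhrf1 (chr17:56303321-56323486, plus strand) or Uhrf2 (chr19:30030513-30093722, plus strand).

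Tdg (chr10:82629828-82650799, plus strand) had 1 site, in exon 3 of 10 (chr10:82641361-82641632). Its reads were 13 and 12 with Flag-MBD5 and 15 and 23 with Flag-MBD6, and its fold enrichment was 10.8, 9.91, 9.93 and 14.2, near the median of all peaks. The site holds stretches of 20 nt that also occur in the processed pseudogenes Gm5597, Gm9855 and Tdg-ps. Tdg-ps had 1 peak, in the first Flag-MBD6 library, and Gm5597 had 1, in the second. Reads were allowed to align to up to 10 places, so the counts of Tdg and its copies are uncertain.

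**Figure D3:**
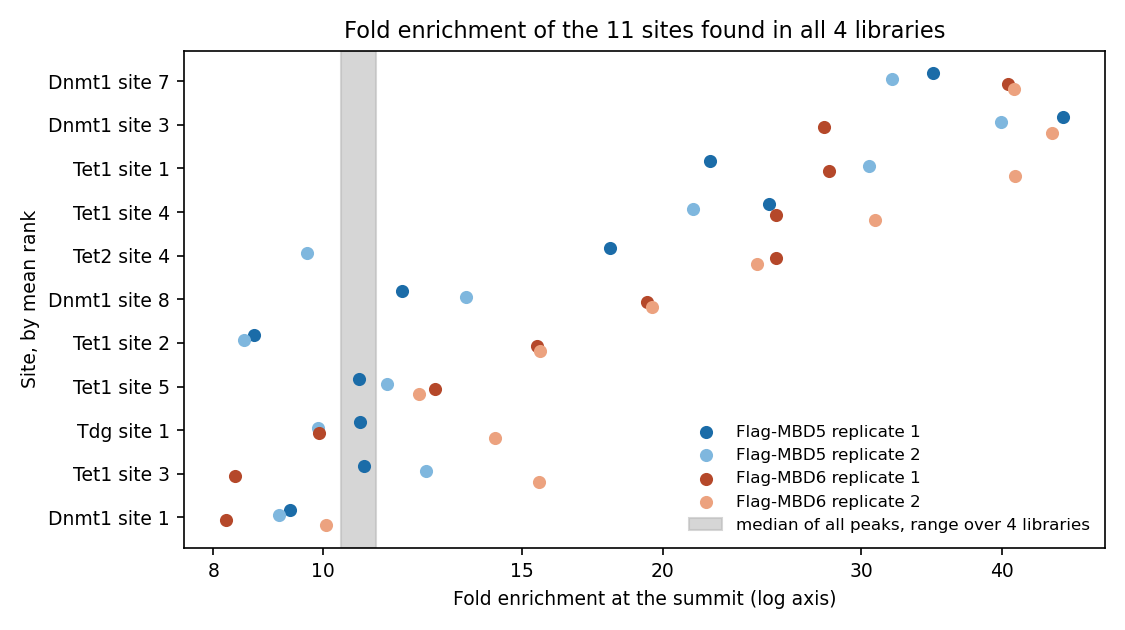
Fold enrichment at the summit (horizontal, log axis) of the 11 sites found in all 4 libraries, with 1 point for each library and a grey band for the range of the library medians over all peaks. Dnmt1 sites 7, 3 and 8 and Tet1 sites 1 and 4 lie above the band in all 4 libraries, and Dnmt1 site 1 lies below it.

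MBD5 and MBD6 were next compared at the 11 shared sites, with the summit reads of each library divided by its estimated depth. The log2 ratio of MBD6 to MBD5 was between −0.68 (Dnmt1 site 1) and 0.22 (Tet1 site 1), with a median of −0.25. The ratio of Tet1 site 3, −0.24, joins peaks whose 5′ ends spread over 366 nt, so it does not compare a single position. Over all 3566 sites in 4 libraries the median was −0.34, and the quartiles were −0.69 and 0.05. Of the 11 sites, 8 lay between these quartiles, and Tet1 sites 1 and 2 and Tet2 site 4 lay above them. The sign of the median depended on the scale: it was 0.08 when the median of all sites was set to 0, and 0.28 when fold enrichment replaced the reads. Fold enrichment has a constant added to signal and background, so it also rises with depth. The Flag-MBD6 libraries were deeper, and how much this changed the median was not tested.

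None of the 11 sites reached a ratio of 2 in either direction on any of these scales. With reads over depth, 0.869% of all shared sites reached it for MBD6 and 9.93% for MBD5. The shares were 3.70% and 2.16% after centring, and 14.7% and 0.813% with fold enrichment, so the direction in which sites of the whole lists leaned depended on the scale. At Dnmt1 site 3 the log2 ratio was −0.53, with an exact 95% counting interval of −1.06 to −0.03, the one interval that excluded 0. Centred on the median of all sites, that interval was −0.72 to 0.31 and included 0, and the one that excluded it was at Tet1 site 1, with 0.56 (0.09 to 1.02). Before centring Tet1 site 1 had 0.22 (−0.24 to 0.69) and Dnmt1 site 7 had −0.50 (−1.09 to 0.07). Before centring, the intervals of 8 of the 11 sites reached a ratio of 2 or passed it, those of Dnmt1 sites 7 and 3 included. A difference of that size is therefore not excluded there. Except at Dnmt1 site 3, these intervals also included 0. Weaker sites had wider intervals, as at Tdg with −0.49 (−1.64 to 0.59). These intervals cover counting error only and treat summit reads as independent counts. No site was found in both Flag-MBD5 libraries and neither Flag-MBD6 library, and 3 were found in the reverse case. The whole lists held 7484 reproducible MBD6 and 4019 reproducible MBD5 regions. The share of all sites in either pattern was not counted. The deeper libraries were those of Flag-MBD6, so depth and protein cannot be told apart in these counts.

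**Figure D4:**
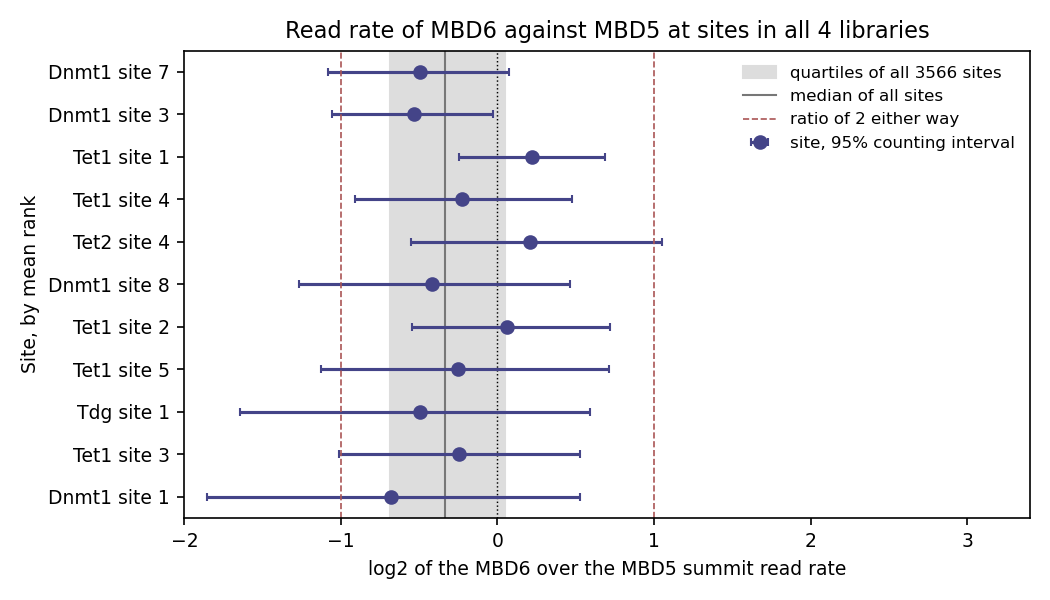
Log2 ratio of the MBD6 to the MBD5 summit read rate at the 11 sites found in all 4 libraries, with exact 95% counting intervals as bars, a grey band between the quartiles of all 3566 sites and dashed lines at a ratio of 2. Every site lies between the dashed lines, and the intervals of all but Dnmt1 site 3 include 0 on this scale, which is not centred.

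Sites began in coding sequence. At 15 nt inside the 5′ end, 29 of the 30 sites were in coding sequence. The other, Tet1 site 1, was in the 5′ UTR by its Flag-MBD6 peaks and in coding sequence by its Flag-MBD5 peaks. By peak, the position was coding in all 18 and 19 Flag-MBD5 peaks and in 28 of 29 and 24 of 26 Flag-MBD6 peaks. Of all peaks, 78.1%, 78.6%, 79.4% and 79.3% were coding there. Another 15.7%, 15.1%, 13.0% and 12.8% of all peaks lay in non-coding exons, and 1.10%, 1.13%, 2.66% and 2.76% in introns. The 10 genes are all protein-coding, so these shares are not like for like, here or at the midpoint. At the midpoint of the peak the shares were 61.1%, 73.7%, 72.4% and 73.1%, against 54.0%, 53.2%, 54.3% and 54.2% of all peaks. With the libraries of a protein pooled, the midpoint share was 67.6% (95% Wilson interval 51.5% to 80.4%) for Flag-MBD5 and 72.7% (59.8% to 82.7%) for Flag-MBD6, intervals that treat peaks of the same site as separate. The midpoints of 10 sites fell in an intron, all 10 with a coding 5′ end, in exons of 76 to 212 nt. Peaks were built from reads extended to 150 bp along the genome, so that a peak that starts in a short exon reaches past its end. Peaks of at least 300 bp made up 3 of 18, 3 of 19, 8 of 29 and 8 of 26 peaks of these genes, against 8.65% to 9.13% of all peaks. The 6 genes with sites had 21843 nt of coding sequence and 14862 nt of 3′ UTR in the transcripts used.

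The letters at the 5′ ends were compared with all peaks over the first 30 nt. A made up 35.2% and 36.8% of the bases of the Flag-MBD5 peaks in these genes and 31.0% and 33.6% of the Flag-MBD6 peaks, against 37.3%, 37.9%, 38.7% and 38.5% of all peaks. C made up 20.4%, 26.5%, 26.0% and 23.9%, against 22.0%, 21.9%, 20.2% and 20.3%. CpG numbered 93.8, 126, 85.2 and 104 per 100 windows of 30 nt in these genes, against 104, 101, 91.5 and 91.6 for all peaks. G preceded the 5′ end in 11 of 16 and 16 of 19 Flag-MBD5 peaks and in 17 of 27 and 13 of 25 Flag-MBD6 peaks, compared with 83.3%, 82.8%, 74.2% and 73.4% of all peaks. These peaks share sites and come mostly from 2 genes, so the shares describe them and were not tested. For scale, A is 29.9% of the coding sequence of Tet1 and 26.7% of that of Dnmt1. CpG number 74.9 and 99.1 per 100 windows of 30 nt in these 2 coding sequences.

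A wider set of 55 genes that act with these enzymes was counted in the same way, and 14 (25.5%) held an MBD5 region and 24 (43.6%) an MBD6 region, beside 7.80% and 13.8% of all protein-coding genes and 25.9% and 38.5% of those with long coding sequences. Partners of TET and DNMT proteins made up most of them, with 11 of 18 genes (61.1%) for MBD5 and 15 of 18 (83.3%) for MBD6, which were not matched to other genes on length or RNA level. Among them Ehmt1, a histone H3K9 methyltransferase, had 22 and 21 reads at its best shared site with Flag-MBD5 and 53 and 62 with Flag-MBD6, at 18.3-fold, 11.95-fold, 35.4-fold and 39.6-fold enrichment. Lig1, the replicative DNA ligase, had 35 reads in each Flag-MBD5 library and 62 and 64 with Flag-MBD6, at 19.9-fold, 27.4-fold, 39.1-fold and 38.5-fold.

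The other lists held fewer regions. Of 9 readers of methylated DNA, 1 held an MBD5 and 3 an MBD6 region, and Zfp57, which protects imprints, had 39, 44, 72 and 86 reads at 15.3-fold, 14.3-fold, 13.5-fold and 11.5-fold enrichment. Of 15 genes of base excision and deamination, 1 held an MBD5 and 4 an MBD6 region, and Parp1, a sensor of DNA breaks, had 38, 35, 47 and 49 reads at 27.4-fold to 30.0-fold enrichment. Of 13 genes of methyl donor and oxoglutarate supply, 1 held an MBD5 and 2 an MBD6 region, and none had a site in all 4 libraries. These counts are small, and they stand beside the same 7.80% and 13.8% of all protein-coding genes.

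**Figure D5:**
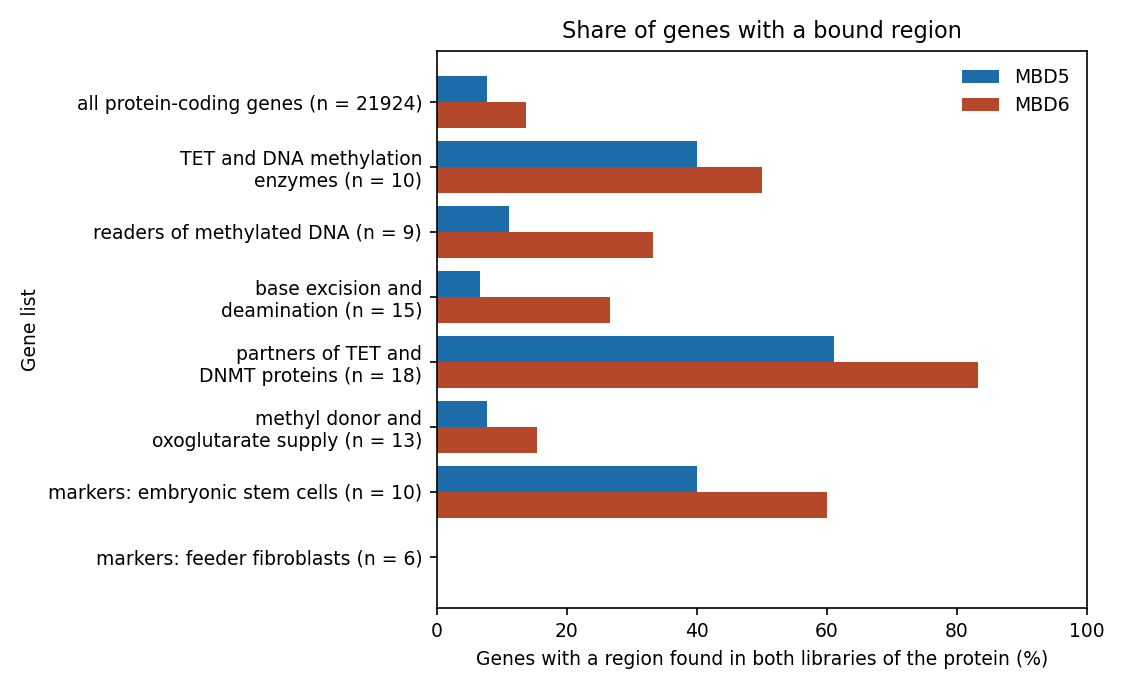
Share of genes in each list that held a region found in both libraries of MBD5 or of MBD6 (horizontal axis, percent), beside all protein-coding genes. The partners of TET and DNMT proteins have the highest shares and the feeder fibroblast markers have none.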

How the data were processed

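CLIP libraries of Flag-MBD5 and Flag-MBD6 (2 each) were analysed, grouped by the labels. The study's methods state that the authors trimmed adapters, filtered on quality, collapsed identical reads over 15 nt, removed ribosomal RNA, aligned to mm10 without splicing with Bowtie 1.0.0 (up to 3 mismatches and 10 places), split strands with SAMtools 1.16.1 and called peaks per strand and library with MACS2 version 2 (extension to 150 bp, up to 5 duplicates kept, genome size 130000000, q under 0.01). Collapsing and the limit on duplicates can hold down the highest read counts, and their effect was not tested.

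Of the deposited columns, fold enrichment is the ratio of summit signal to local background, with a constant added to each. The −log10 p and −log10 q come from MACS2, and the deposited score is 10 times −log10 q as a whole number. Another deposited column gives the summit's distance from the peak start. Summit reads and the background rate were solved from fold enrichment and −log10 p, within a relative error of 0.0001, for 100% of peaks. The lowest rate per strand, times genome size over extension, gave the depth, which is an estimate and not a count of fragments. A site's library value is its peak with most reads.

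Gene bodies, exons and sequences came from GENCODE release M21. The transcript of a gene was chosen first by the APPRIS tag for the principal isoform, then the basic tag, then the longest coding sequence. The limit of 4000 nt used the longest coding sequence of each gene. Ratios have exact conditional binomial 95% intervals and shares have Wilson intervals, for counting error only. Copies were sought as shared words of 20 nt. All 10 genes were named; values were given for sites in all 4 libraries and the best 3 of 1 protein alone, and of each wider list the 2 genes of highest fold in a site of all 4 libraries. Members, lists and rules were chosen with earlier results of these data known. The solver, intervals and look-ups were tested on simulated data. There were 15 alternatives, 4 of which left out a library. Python 3.11.15, pandas 2.3.3 and scipy 1.17.1 were used. Protein sequences were not used here.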

Additional observations from a re-analysis of the deposited data

How the results depend on the processing

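With all libraries kept, 34 of 40 recomputed results stayed within 1.5 times the reported count, the interval of the share or 1 SD of the library-pair medians. Another 14, with q under 0.001 or a fold of at least 4, could not change, since the weakest peak of these genes had a −log10 q of 4.79 and a fold of 4.57, and they say nothing of stability. The share of peaks in coding sequence rose from 67.6% to 100% for Flag-MBD5 and from 72.7% to 94.5% for Flag-MBD6 when the position 15 nt inside the 5′ end replaced the midpoint. The mean of 27.5 Flag-MBD6 peaks in these genes became 18 with 5362 peaks taken from each library. The median log2 ratio of −0.25 became −0.34 with a reciprocal overlap of 50% (10 sites), and its sign changed, to 0.0814 with the ratios centred on the median of all sites and to 0.281 with fold enrichment as the measure. Without each library in turn it lay between −0.36 and −0.23, the lowest value being without the second Flag-MBD5 library. Genes with a region numbered 4 to 5 for MBD5 and 5 to 6 for MBD6 in those fits, and their peaks 18 to 19 and 26 to 29.

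Regions per gene stayed within 1.5 times in 121 of 140 cases, the q and fold minimums left out. With a peak in either replicate enough, 6 of 20 moved: MBD5 regions of Tet1, Tet2, Dnmt1 and Dnmt3l became 9, 4, 8 and 2, and MBD6 regions of Dnmt3b and Dnmt3l became 1 and 3. Leaving out a library lets every peak of the other count: MBD5 regions of Tet1 became 9 without the second Flag-MBD5 library, those of Dnmt1 8 without the first, those of Tet2 3 and 2 without the first and the second, and those of Dnmt3l 1 without either. MBD6 regions of Dnmt3l became 2 without either Flag-MBD6 library, and Dnmt3b gained 1 without the second. No paired analysis was possible because no result came from a test and the replicates of each protein were counted as 1 sample. Depth limits the weaker sites: the weakest called peaks had 5 reads with Flag-MBD5 and 6 with Flag-MBD6, so a gene without peaks may be bound below that level.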
